A study of Mus musculus with 228 samples.

Results

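The comparison concerned granule cells of the dentate gyrus that received a virus for Ascl4, split by how much Ascl4 RNA each cell held. The quality-controlled table held 51 cells labelled Ascl4 GC, along with 45 Ascl4 CA1, 46 EGFP CA1 and 47 EGFP GC cells. The members were chosen by their measured Ascl4 level, in gene-assigned reads scaled to a total of 1000000 per cell (CPM). The 25 cells above the median of the 51 were taken as high-Ascl4 cells, the 25 below it as low-Ascl4 cells, and the median cell was left out. The cells came from ventral hippocampal slices of adult Calb1-Cre mice aged 3 to 4 months. Both groups had received a Cre-dependent AAV for EGFP (adeno-associated virus, green fluorescent protein) together with an AAV for Ascl4, and were drawn into a patch pipette 1 month after the injection. The 47 EGFP GC cells, taken from the same line and region at the same age and time, had received the EGFP virus alone. No group had a second virus without Ascl4, so the level of Ascl4 and the amount of a second virus taken up cannot be told apart. Ascl4 CA1 pyramidal cells, from Nex-Cre mice with both viruses, were split by the same rule into 22 and 22.

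Ascl4 belongs to the achaete-scute family of basic helix-loop-helix (bHLH) transcription factors. Members of this class pair with E proteins such as Tcf3, Tcf4 and Tcf12 and bind the E box, a short DNA motif, while Id proteins bind the same partners but lack the domain that contacts DNA. Dentate granule cells are glutamatergic neurons that send mossy fibre axons to CA3 and carry Prox1 and calbindin (Calb1).

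Ascl4 itself chose the groups, so its levels are a description. It ran from 12325 to 44534 CPM (median 19157 CPM) in the high-Ascl4 cells, and from 182.9 to 9869 CPM (median 6838 CPM) in the low-Ascl4 cells. The cells next to the split had 12325 and 12625 CPM above it, 11177 CPM at the median, and 9786 and 9869 CPM below it. In EGFP GC cells Ascl4 ran from 0.335 to 221.7 CPM (median 24.2 CPM). The labels name no animal, batch or culture, so the high-Ascl4 cells were treated as 1 sample and the low-Ascl4 cells as 1 sample. No test between them was possible, and every difference below is given by its size alone. Intervals are exact Poisson (summed counts) or Clopper-Pearson (shares of cells) at 95% and cover counting error only. For a count of 0 the limit is the share that 3 cells would give, which for 25 cells is 12%, beside 13.7% as the exact upper bound. The cell titles form 2 runs of numbers, 21 to 57 and a later one that ends at 120, and each group held 16 cells of the first and 9 of the second.

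Before any result, 4 of the low-Ascl4 cells stood apart. They carried the last 4 title numbers of the second run, up to 120, and held 12057 to 14695 genes with a read, against at most 8392 in the high-Ascl4 cells, 8910 in the other 21 low cells and 9239 in EGFP GC cells. Their Ascl4 levels were 773, 318, 182.9 and 3043 CPM, 3 of them the lowest of all 51 cells. Mitochondrial genes took 7.83% to 23.5% of their reads, against 0.135% to 1.43% in the high-Ascl4 cells and 0.168% to 5.21% in the other low cells. No pair of cells held identical counts. The correlation of log(CPM + 1) between these 4 cells was 0.69 to 0.75 (Pearson's r across genes), with 0.43 as the median over all pairs of Ascl4 GC cells.

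The 4 cells also held high levels of RNA known from other cell types. The myelin gene Mbp had 88228, 78034, 48237 and 45195 CPM in them and at most 1062 CPM in the 47 other Ascl4 GC cells, 23 of which reached 10 CPM, and at most 3983 CPM in EGFP GC cells. Gabra6, a GABA-A receptor subunit known from granule cells of the cerebellum, had 406, 383, 455 and 523 CPM, against at most 1.86 CPM in the 47 others and 0.302 CPM in EGFP GC cells. Fat2 and Cbln3, both also known from cerebellar granule cells, had 80.9 to 314 CPM and 468 to 1804 CPM, and reached 0.658 CPM and 38.5 CPM at most in the other 47. In EGFP GC cells Fat2 reached 0.603 CPM at most, and 1 cell held 467 CPM of Cbln3, level with the lowest of the 4. Mbp, Gabra6, Fat2 and Cbln3 were picked for this description after their values were seen. The summed granule cell marker list stood at 482 to 1381 CPM in the 4 cells and at 1251 to 14172 CPM in the other low cells. In the high-Ascl4 cells it ran from 53.8 to 9674 CPM. The high-Ascl4 cells at 53.8 and 183.1 CPM fell below all 4, so a low sum was also seen outside the 4 cells. The median sum was 671 CPM in the 4 cells, 5957 CPM in the high-Ascl4 cells and 5174 CPM in the other low cells. C1ql2, a granule cell marker, was at most 5.82 CPM in the 4 cells and reached 10 CPM in 23 of the 47 others, whose median was 6.45 CPM. Prox1, another such marker, went the other way in its share of cells at 10 CPM, but not in its highest level. It had 11.5 to 64.04 CPM in the 4 cells, while 20 of the 47 others reached 10 CPM (median 3.16 CPM, highest 1819 CPM). Of the 6 defining granule cell markers given below, at least 2 reached 10 CPM in each of the 4 cells. Their sum was 103.8 to 336.6 CPM in the 4 cells, and 49.1 to 6322 CPM (median 2399 CPM) in the other low cells. The labels call these 4 cells Ascl4 GC cells, and whether each is a single granule cell was not tested. The log2 ratios of high-Ascl4 over low-Ascl4 cells and the list medians below are given over all 50 cells and without these 4, called the broad cells.

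**Figure D1:**
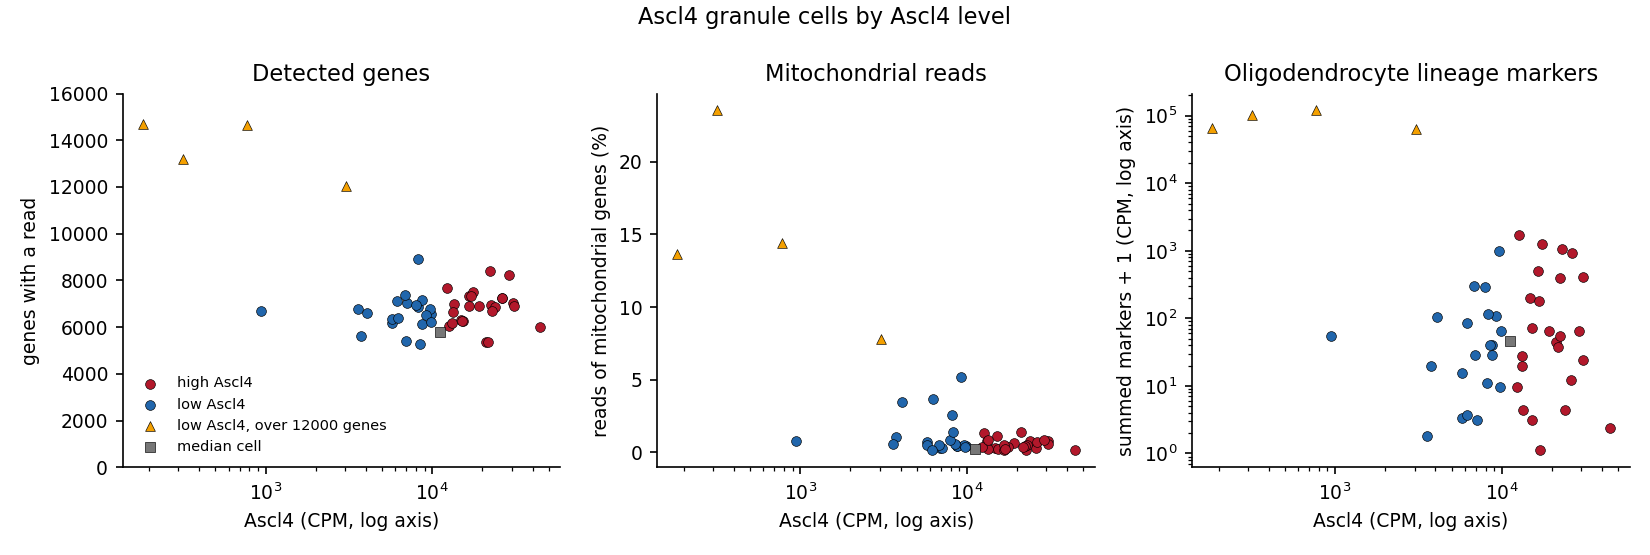
Each point is 1 of the 51 Ascl4 GC cells, with its Ascl4 level (CPM, log axis) on the x axis and, from left to right, its genes with a read, the percent of its reads from mitochondrial genes, and its summed oligodendrocyte lineage markers plus 1 (CPM, log axis). The 4 low-Ascl4 cells with over 12000 genes (orange triangles) lie above all others in each panel.

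The label granule cell was checked against its defining markers Prox1, Calb1, C1ql2, Dsp, Stxbp6 and Synpr. At least 2 of the 6 reached 10 CPM in 22 of 25 high cells and in 22 of 25 low cells (18 of 21 without the broad cells). Calb1 reached 10 CPM in 24 high and 23 low cells. Of the CA1 pyramidal markers Neurod6, Wfs1, Fibcd1, Man1a and Mpped1, at least 2 reached 10 CPM in 0 high cells and in 3 low cells, 2 of them broad. The T cell markers Cd3e, Cd3g and Trac had no read in the high-Ascl4 cells. Markers of other cells were also present. At least 2 of 6 microglia markers (Cx3cr1, P2ry12, Tmem119, Csf1r, C1qa, C1qb) reached 10 CPM in 6 high and 7 low cells, 4 of them broad. At least 2 of 3 oligodendrocyte markers (Mbp, Mog, Mag) did so in 3 high and 6 low cells, 4 of them broad, and at least 2 of 4 astrocyte markers (Aqp4, Gfap, Aldh1l1, Slc1a3) in 1 high and 4 low cells, all 4 broad. Of 6 interneuron markers (Gad1, Gad2, Slc32a1, Sst, Pvalb, Vip), at least 1 reached 10 CPM in 18 high and 19 low cells and at least 2 in 2 high and 5 low cells. The part of these cell types in the results below was not tested.

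Of 9516 expressed genes, 3365 (35.4%) were at least 1.5-fold higher and 2932 (30.8%) at least 1.5-fold lower in the high-Ascl4 cells, with a median log2 ratio of 0.11 over all of them. A log2 ratio compares the reads of each group, summed over cells and scaled to CPM, with 1 CPM added to both. Without the broad cells 3275 of 9112 genes (35.9%) were higher and 2887 (31.7%) lower, and 2977 higher and 2506 lower calls were shared. Of the lower calls over all 50 cells, 65 turned into higher calls. In CA1 cells split by the same rule 3019 of 9756 genes (30.9%) were higher and 2805 (28.8%) lower. These shares are the background against which each gene and list below is to be read: 66.2% of expressed genes passed 1.5-fold one way or the other. The median expressed gene reached 10 CPM in 12 of the 50 cells, so a sum over a group rests on few cells.

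The naming rule asked for more. A gene had to be at least 1.5-fold higher, or lower, in summed CPM and in mean CPM per cell. The same was required of that mean without the highest cell on each side, and of each run of title numbers. The rule also asked that the share of cells at 10 CPM differ the same way. It was met by 992 genes upwards (10.4%) and 1100 downwards (11.6%), and without the broad cells by 1233 (13.5%) and 843 (9.25%). In the CA1 split 1118 (11.5%) and 724 (7.42%) met it. The 12 genes named at each end were each carried by few cells. The higher genes reached 10 CPM in 3 to 9 of 25 high-Ascl4 cells, and the lower genes in 5 to 10 of 25 low-Ascl4 cells. Over all 51 single cells the higher genes hardly followed Ascl4. Their rank correlation with Ascl4 CPM (Spearman's rho) was −0.08 to 0.14, and that of the lower genes was −0.60 to −0.18.

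Among the higher genes, Nup93 encodes a scaffold protein of the nuclear pore. It lies on chromosome 8 at 94214564 to 94317227 (GRCm38, plus strand). Its values were 0 to 718 CPM (median 0.233 CPM) in the high-Ascl4 cells and 0 to 6.69 CPM (median 0.269 CPM) in the low-Ascl4 cells. It reached 10 CPM in 6 high cells (24%, 9.36% to 45.1%) and in 0 low cells, for which the limit is 12%, and its summed levels were 141.6 CPM in the high-Ascl4 cells and 0.586 CPM in the low-Ascl4 cells (log2 6.49; 6.57 without the broad cells). EGFP GC cells are the level without the Ascl4 virus, and there it reached 10 CPM in 5 of 47 cells. Trub1, a pseudouridine synthase, had 0 to 1824 CPM (median 0.626 CPM) in the high-Ascl4 cells and 0 to 135.3 CPM (median 0.269 CPM) in the low-Ascl4 cells, and its sums were 224.6 CPM in the high-Ascl4 cells and 4.80 CPM in the low-Ascl4 cells (log2 5.28; 5.03 without the broad cells). Frzb, a secreted antagonist of Wnt ligands, had 0 to 1021 CPM (median 0.604 CPM) in the high-Ascl4 cells and 0 to 193.2 CPM (median 0.671 CPM) in the low-Ascl4 cells, with sums of 201.5 CPM in the high-Ascl4 cells and 5.76 CPM in the low-Ascl4 cells (log2 4.91; 5.31 without the broad cells). It reached 10 CPM in 9 high and 3 low cells, and in 15 of 47 EGFP GC cells. Median cells of both groups were therefore near 0 for all 3 genes, and the groups overlapped.

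Sall2, a zinc finger transcription factor, had 76.2 CPM in the high-Ascl4 cells and 0.892 CPM in the low-Ascl4 cells (log2 5.35; 6.10 without the broad cells) and reached 10 CPM in 5 high cells and 1 low cell, a broad one. Abcg4, a sterol transporter, had 80.2 CPM in the high-Ascl4 cells and 1.95 CPM in the low-Ascl4 cells (log2 4.78; 5.77 without the broad cells) and reached 10 CPM in 6 high cells and in 1 low cell. Mcph1 (chromosome condensation and brain size), Gas8 (a cilium component) and Ighmbp2 (a helicase) had log2 ratios of 5.18, 5.65 and 4.69, and of 5.44, 5.60 and 4.62 without the broad cells. Dcp1a (mRNA decapping), Trip10 (a membrane-bending adaptor), Epb41l4a (a membrane skeleton protein) and Acta1 (skeletal muscle actin) had 5.72, 5.81, 5.48 and 5.81, and 6.05, 5.72, 5.37 and 5.98 without the broad cells.

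The sign did not hold for 5 of the 12 higher genes when the median was drawn again over the 47 cells without the broad ones. This places the cell just above the split (12325 CPM of Ascl4) among the low-Ascl4 cells. That cell had the most reads of the high-Ascl4 cells, 20876388 or 11.9% of them, and held 718 CPM of Nup93, 452 CPM of Dcp1a, 320.5 CPM of Trip10, 313 CPM of Epb41l4a and 432 CPM of Acta1. In the redrawn split Nup93 stood at −0.99, Dcp1a at −1.39, Trip10 at −1.99, Epb41l4a at −0.91 and Acta1 at −0.82. The other 7 stayed at least 1.5-fold higher under all 21 alternatives tried. Part of this was set in advance, because the naming rule had required it in the means and in each run of title numbers. The alternatives also use largely the same cells, and some, such as a changed expression filter, cannot change a single-gene ratio.

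Among the lower genes, Padi2 encodes a peptidylarginine deiminase, an enzyme that turns arginine in proteins into citrulline. It lies on chromosome 4 at 140906344 to 140952586 (plus strand). Its values were 0 to 1.61 CPM (median 0 CPM) in the high-Ascl4 cells and 0 to 1836 CPM (median 0.808 CPM) in the low-Ascl4 cells. No high cell reached 10 CPM, against 7 low cells (28%, 12.1% to 49.4%), 4 of them broad. The sums were 0.0916 CPM in the high-Ascl4 cells and 171.4 CPM in the low-Ascl4 cells, 0.0523 to 0.149 CPM against 168.98 to 173.8 CPM by counting error (log2 −7.30; −7.44 without the broad cells). In EGFP GC cells 1 of 47 cells reached 10 CPM. Dgat1, which makes triglycerides, had 0 to 0.733 CPM (median 0 CPM) in the high-Ascl4 cells and 0 to 745 CPM (median 0.597 CPM) in the low-Ascl4 cells, reached 10 CPM in 0 high and 10 low cells, 4 of them broad, and had sums of 0.0572 CPM in the high-Ascl4 cells and 80.2 CPM in the low-Ascl4 cells (log2 −6.26; −6.49 without the broad cells). In EGFP GC cells it reached 10 CPM in 7 of 47. Both genes were thus near 0 in every high cell and high in a minority of low cells.

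Acsbg1, a fatty acyl-CoA synthetase of brain, had 0.155 CPM in the high-Ascl4 cells and 345 CPM in the low-Ascl4 cells (log2 −8.23; −8.30 without the broad cells). All 4 broad cells and 2 others of the low-Ascl4 cells reached 10 CPM, the highest at 3546 CPM. Cbln3, a cerebellin, had 0.0515 CPM in the high-Ascl4 cells and 179.8 CPM in the low-Ascl4 cells (log2 −7.43), and −1.17 without the broad cells, where 1 low cell reached 10 CPM. Grm4 (a metabotropic glutamate receptor), Cnp (a myelin enzyme) and Fgf1 (a growth factor) likewise had 4 broad cells among the 5 low cells at 10 CPM. Their log2 ratios were −6.67, −6.62 and −6.11 over all cells and −5.39, −3.12 and −4.59 without the broad cells. Without the broad cells these 4 ratios rested on 1 low cell each.

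The other 5 lower genes rested mostly on low cells that were not broad. Spag1 (assembly of motile cilia) had log2 −6.40 and −6.70 without the broad cells, Khk (ketohexokinase, the first step of fructose use) −6.52 and −6.83, and Zfp318 (a zinc finger protein) −5.67 and −5.91. Atat1 (acetylation of α-tubulin) had −5.58 and −5.77, and Mturn (a regulator of neural maturation) −5.67 and −5.50. With the authors' normalized values Khk stood at 2.14 and Mturn at 2.02, the other sign. In CA1 cells, 6 of the 12 higher genes were at least 1.5-fold higher and 5 at least 1.5-fold lower, and of the 12 lower genes 7 were at least 1.5-fold lower and 2 higher. By the same filter 8 of the higher and 8 of the lower genes were expressed in CA1 cells. Over all expressed genes of the CA1 split 30.9% were higher and 28.8% lower. Its low side held 1 cell with 17883 genes with a read, and no ratio of the CA1 split was computed without it. Cbln3 had 51.4 CPM in that cell and at most 1.36 CPM in the other 44 Ascl4 CA1 cells.

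**Figure D2:**
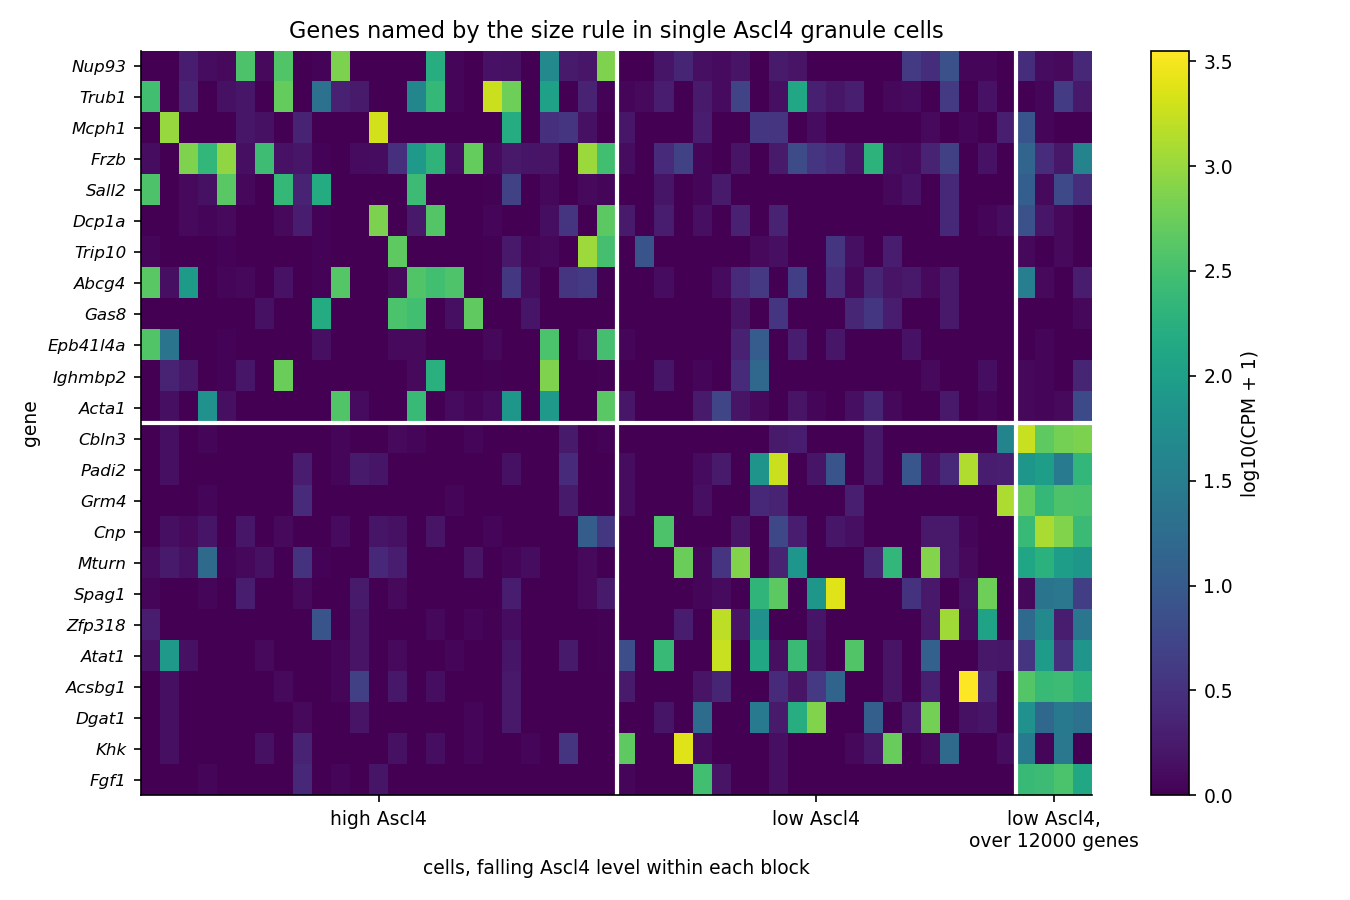
Rows are the 24 genes named by the size rule, columns the 25 high-Ascl4 cells, the 21 low-Ascl4 cells with at most 12000 genes and the 4 low-Ascl4 cells with more, ordered within each block by falling Ascl4 level, and the colour gives log10(CPM + 1). Most entries are near 0, each higher gene reached 10 CPM in 3 to 9 high-Ascl4 cells and each lower gene in 5 to 10 low-Ascl4 cells, with Cbln3, Grm4, Cnp and Fgf1 lit mainly in the 4 cells at the right.

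Across single cells the closest followers of Ascl4 were weakly ordered. Spearman's rho between a gene's CPM and Ascl4 CPM over the 51 cells ran from −0.61 to 0.45 (median −0.08) over the expressed genes, and from −0.55 to 0.55 (median 0.03) over the 47 cells without the broad ones. The labels do not say which cells came from 1 animal, so rho is a description. The genes given next were picked for it, among expressed genes at 10 CPM or more in at least 25% of the 51 cells. Genes detected in fewer cells were not picked, although rho went down to −0.60 among the 12 lower genes named above. Sult4a1, a brain sulfotransferase-like protein, had the highest rho (0.45; 0.55 without the broad cells). The gene lies on chromosome 15 at 84076097 to 84105754 (minus strand). It ran from 0.147 to 1533 CPM (median 424 CPM) in the high-Ascl4 cells and from 0 to 732 CPM (median 3.34 CPM) in the low-Ascl4 cells, and reached 10 CPM in 18 high cells, against 10 low cells, 4 of them broad, and 28 of 47 EGFP GC cells. Its sums were 404 CPM in the high-Ascl4 cells and 145.7 CPM in the low-Ascl4 cells (log2 1.46; 1.70 without the broad cells). Most high cells thus lay well above 10 CPM and most low cells near 0, with overlap on both sides.

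Lrrtm2, a postsynaptic adhesion protein of glutamate synapses, had rho 0.45 and 0.48 without the broad cells. Its values were 0.127 to 949 CPM (median 44.2 CPM) in the high-Ascl4 cells and 0 to 344 CPM (median 0.454 CPM) in the low-Ascl4 cells, with sums of 158.97 CPM in the high-Ascl4 cells and 33.4 CPM in the low-Ascl4 cells (log2 2.22; 2.02 without the broad cells). It reached 10 CPM in 15 high and 6 low cells, and in 12 of 47 EGFP GC cells. Aplp2, a relative of the amyloid precursor protein, had rho 0.44, with 2.20 to 3612 CPM (median 808 CPM) in the high-Ascl4 cells and 1.02 to 2351 CPM (median 259.7 CPM) in the low-Ascl4 cells and sums of 747 CPM in the high-Ascl4 cells and 486 CPM in the low-Ascl4 cells (log2 0.62; 0.68 without the broad cells). Tspyl4, a nucleosome assembly-like protein, had rho 0.39 and sums of 682 CPM in the high-Ascl4 cells and 206.3 CPM in the low-Ascl4 cells (log2 1.72; 1.79 without the broad cells), and its summed EGFP GC level was 451 CPM. Errfi1, an inhibitor of the EGF receptor, had rho 0.39 and sums of 832 CPM in the high-Ascl4 cells and 360.3 CPM in the low-Ascl4 cells (log2 1.20; 0.92 without the broad cells). Sult4a1, Lrrtm2, Tspyl4 and Errfi1 stayed at least 1.5-fold higher under all 21 alternatives, and Aplp2 under 19 of them.

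At the other end, Mkks (a chaperonin-like protein of the primary cilium) had rho −0.60 and −0.54 without the broad cells, and reached 10 CPM in 3 high and 11 low cells. Its sums were 74.3 CPM in the high-Ascl4 cells and 137.9 CPM in the low-Ascl4 cells (log2 −0.88; −1.11 without the broad cells), and in the second run alone it was higher (1.03). Nucb1 (a calcium-binding Golgi protein), Ndufaf7 (assembly of respiratory complex I) and Ppp1r21 (an endosomal protein) had rho −0.49, −0.47 and −0.45. Nucb1 had 47.5 CPM in the high-Ascl4 cells and 411 CPM in the low-Ascl4 cells (log2 −3.08; −3.36 without the broad cells), Ndufaf7 25.3 CPM in the high-Ascl4 cells and 387 CPM in the low-Ascl4 cells (log2 −3.88; −4.20 without the broad cells), and Ppp1r21 4.09 CPM in the high-Ascl4 cells and 45.6 CPM in the low-Ascl4 cells (log2 −3.19; −3.28 without the broad cells). They reached 10 CPM in 3, 4 and 3 high cells and in 12, 13 and 11 low cells, and stayed at least 1.5-fold lower under all 21 alternatives. The genes were picked for rho in largely the same cells, so this is a description of these cells alone. In the CA1 split the log2 ratios of Sult4a1, Lrrtm2, Nucb1 and Ndufaf7 were 0.44, −0.86, −0.33 and 0.43, so Lrrtm2 and Ndufaf7 had the other sign there.

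**Figure D3:**
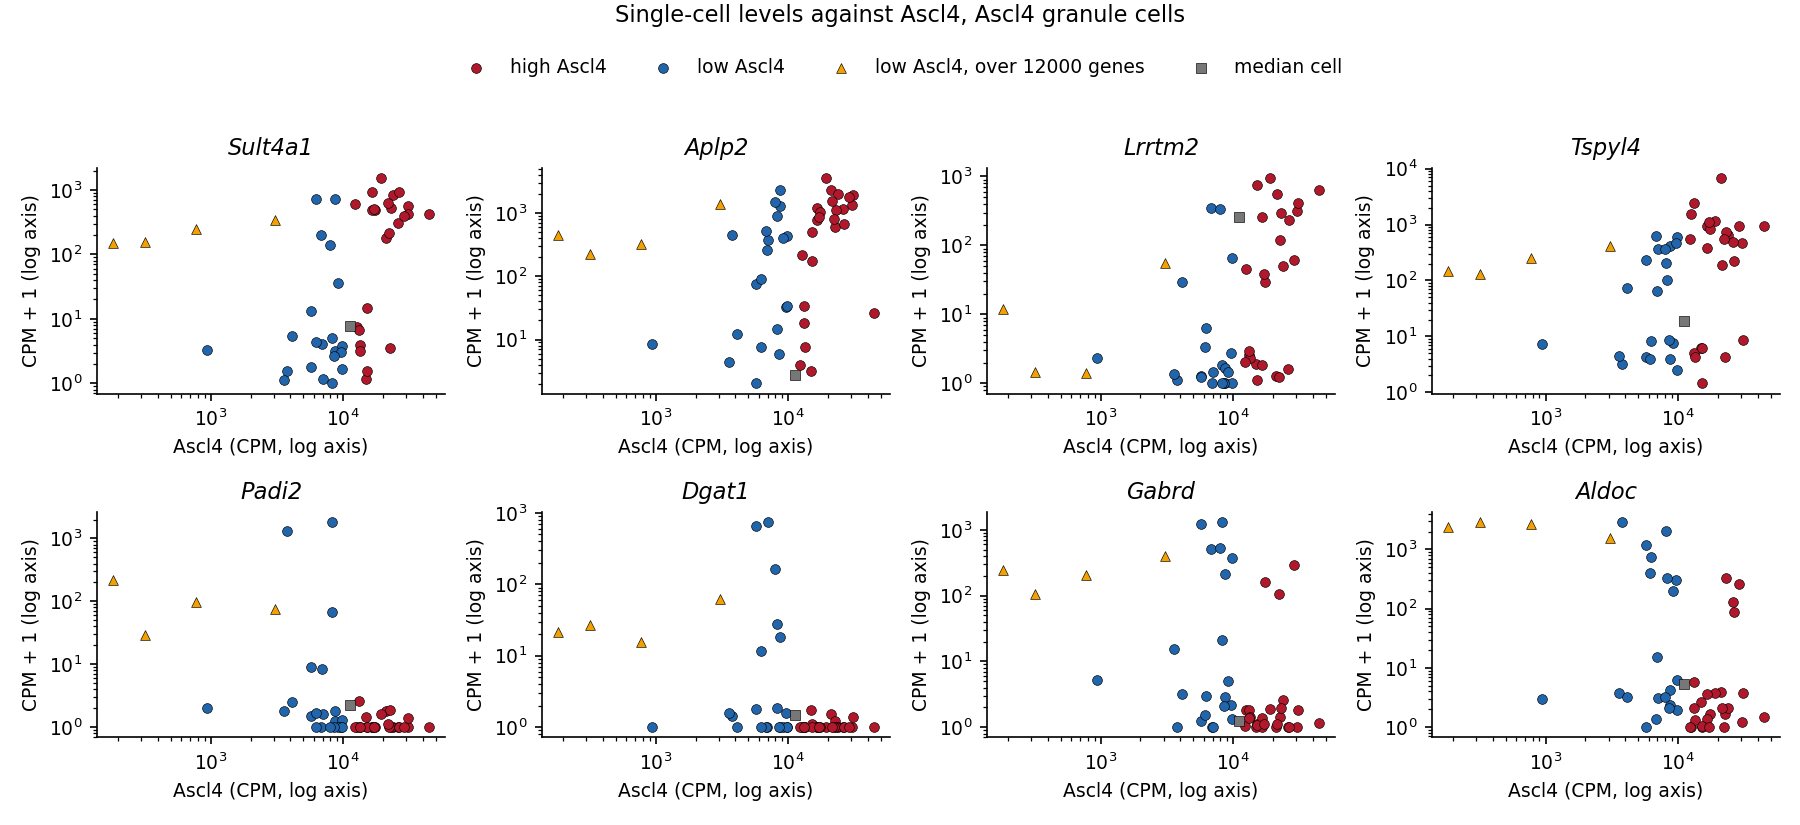
Each panel plots 1 gene's level plus 1 (CPM, log axis) against Ascl4 (CPM, log axis) in the 51 Ascl4 GC cells, with the high-Ascl4 cells in red, the low-Ascl4 cells in blue, the 4 low cells with over 12000 genes in orange and the median cell in grey. Sult4a1, Aplp2, Lrrtm2 and Tspyl4 were high in more high-Ascl4 cells, and Padi2, Dgat1, Gabrd and Aldoc in more low-Ascl4 cells, while each gene was near 0 in cells of both groups.

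The start regions of 4 of these genes are shown because they include a pair that was higher (Tspyl4, Aplp2) and a pair that was lower (Padi2, Ppp1r21) with Ascl4. The sequences are RefSeq's for GRCm38.p6, 250 bases before to 50 bases after the gene start, 5′ to 3′ on the gene's strand. They lie at chr10:34297171-34297470 (+) for Tspyl4, chr9:31211799-31212098 (−) for Aplp2, chr4:140906110-140906409 (+) for Padi2 and chr17:88529874-88530173 (+) for Ppp1r21. Capitals mark the E box CANNTG, a pattern that reads the same on both strands.
Tspyl4: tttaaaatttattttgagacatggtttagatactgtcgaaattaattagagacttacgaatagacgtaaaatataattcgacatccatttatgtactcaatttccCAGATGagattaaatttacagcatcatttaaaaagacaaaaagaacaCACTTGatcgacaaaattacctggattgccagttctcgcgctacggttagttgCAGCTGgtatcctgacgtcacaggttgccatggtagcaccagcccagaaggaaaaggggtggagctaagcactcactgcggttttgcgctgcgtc
Aplp2: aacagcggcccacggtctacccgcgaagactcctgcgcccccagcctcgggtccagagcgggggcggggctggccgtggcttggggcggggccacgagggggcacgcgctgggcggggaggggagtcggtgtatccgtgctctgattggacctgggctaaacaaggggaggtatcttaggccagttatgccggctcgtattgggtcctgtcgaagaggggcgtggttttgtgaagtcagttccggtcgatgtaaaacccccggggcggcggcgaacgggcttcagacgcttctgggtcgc
Padi2: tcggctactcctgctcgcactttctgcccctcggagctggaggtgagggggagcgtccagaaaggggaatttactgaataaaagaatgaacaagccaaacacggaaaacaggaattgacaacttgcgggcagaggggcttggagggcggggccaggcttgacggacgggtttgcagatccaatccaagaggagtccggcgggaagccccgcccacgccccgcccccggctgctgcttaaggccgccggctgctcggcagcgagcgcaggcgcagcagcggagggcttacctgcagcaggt
Ppp1r21: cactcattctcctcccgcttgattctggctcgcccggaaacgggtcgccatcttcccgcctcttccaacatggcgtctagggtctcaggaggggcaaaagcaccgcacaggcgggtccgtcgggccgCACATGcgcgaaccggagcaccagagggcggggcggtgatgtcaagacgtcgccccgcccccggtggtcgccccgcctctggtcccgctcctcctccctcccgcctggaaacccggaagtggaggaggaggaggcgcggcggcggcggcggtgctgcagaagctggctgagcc
Tspyl4 holds 3 such matches, Ppp1r21 holds 1, and Aplp2 and Padi2 hold none. CANNTG was found in 72.3% of all 32851 windows of this length in the table and in 62.6% of the 9679 windows of expressed genes. Of the 24 genes named by the size rule, 9 higher genes had 11 windows, 10 of them with a match, and 8 lower genes had 9 windows, 7 of them with a match. A match describes letters in the window and says nothing of binding.

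The partners and opponents of Ascl4 were described from a list of 46 bHLH, E protein, Id and Notch genes, of which 19 were expressed, 5 at least 1.5-fold higher and 8 lower (median log2 −0.29; −0.41 without the broad cells), beside 35.4% and 30.8% of all genes. Tcf4 ran from 0.698 to 2263 CPM (median 754 CPM) in the high-Ascl4 cells and from 0 to 2443 CPM (median 448 CPM) in the low-Ascl4 cells, with sums of 723 CPM in the high-Ascl4 cells and 882 CPM in the low-Ascl4 cells (log2 −0.29; −0.53 without the broad cells), and the groups overlapped over almost their whole range. Tcf12 had log2 0.26 and 0.11 without the broad cells. Tcf3 had sums of 80.8 CPM in the high-Ascl4 cells and 19.4 CPM in the low-Ascl4 cells (log2 2.00; 3.57 without the broad cells), yet 6 cells of each group reached 10 CPM, and with the redrawn median it stood at −0.18. Id2 had 28.9 CPM in the high-Ascl4 cells and 112.3 CPM in the low-Ascl4 cells (log2 −1.92; −1.59 without the broad cells) and reached 10 CPM in 2 high and 10 low cells, but stood at 0.62 in the first run alone. Id4 had 0.0744 CPM in the high-Ascl4 cells and 118.5 CPM in the low-Ascl4 cells (log2 −6.80; −7.04 without the broad cells), where 4 low cells reached 10 CPM, 3 of them broad. Hes6, a neural bHLH factor that opposes Hes1, had 48.7 CPM in the high-Ascl4 cells and 2.72 CPM in the low-Ascl4 cells (log2 3.74; 5.35 without the broad cells) and reached 10 CPM in 5 high and 2 low cells.

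Granule cell identity genes had a median log2 ratio of 0.36 over 23 expressed members, 9 higher and 2 lower. Without the broad cells it was 0.02 over 24 members, with 9 higher and 5 lower. Over all expressed genes 35.4% were higher and 30.8% lower, and 35.9% and 31.7% without the broad cells. The list median was −0.21 in the first run and 1.65 in the second, and −0.23 and 0.60 without the broad cells. Calb1 ran from 6.59 to 3593 CPM (median 1189.8 CPM) in the high-Ascl4 cells and from 7.16 to 3534 CPM (median 657 CPM) in the low-Ascl4 cells, and its sums were 1324 CPM in the high-Ascl4 cells and 1029.7 CPM in the low-Ascl4 cells (log2 0.36; 0.04 without the broad cells). Prox1 had 135.96 CPM in the high-Ascl4 cells and 192.5 CPM in the low-Ascl4 cells (log2 −0.50; −0.78 without the broad cells). C1ql2, a mossy fibre synaptic organizer, had 378 CPM in the high-Ascl4 cells and 176.9 CPM in the low-Ascl4 cells (log2 1.09; 0.75 without the broad cells), and with the redrawn median its log2 ratio was −0.0016. The summed EGFP GC levels of Calb1, Prox1 and C1ql2 were 1025, 175.3 and 1017 CPM. Dock10 had 286 CPM in the high-Ascl4 cells and 73.9 CPM in the low-Ascl4 cells (log2 1.94; 1.92 without the broad cells) and Pdzd2 110.7 CPM in the high-Ascl4 cells and 4.37 CPM in the low-Ascl4 cells (log2 4.38; 4.23 without the broad cells), while the cation channel Trpc6 had 6.15 CPM in the high-Ascl4 cells and 250.5 CPM in the low-Ascl4 cells (log2 −5.14; −5.48 without the broad cells), carried by 4 low cells. Smoc2 and Cxcl12, at 121.9 and 128.3 CPM in EGFP GC cells, reached 10 CPM in no cell of either group.

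Interferon-induced genes were present in both groups. At least 3 genes of the list reached 10 CPM in 14 of 25 high cells and in 16 of 25 low cells (12 of 21 without the broad cells), against 0 of 47 EGFP GC cells. The summed list ran from 0.444 to 4119.8 CPM (median 813 CPM) in the high-Ascl4 cells and from 7.09 to 6294 CPM (median 1169.8 CPM) in the low-Ascl4 cells, so the groups overlapped. Of 21 expressed members 6 were higher and 12 lower (median log2 −0.66; −0.72 without the broad cells). The median was 0.33 in the first run alone and 0.24 between the 17 highest and the 17 lowest cells, so its sign was not kept.

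Ifit3, an antiviral protein, had 0 to 519.7 CPM (median 0 CPM) in the high-Ascl4 cells and 0 to 3065 CPM (median 0.668 CPM) in the low-Ascl4 cells, with sums of 26.1 CPM in the high-Ascl4 cells and 329.7 CPM in the low-Ascl4 cells (log2 −3.61; −3.93 without the broad cells), and reached 10 CPM in 2 high and 7 low cells. Xaf1, a pro-apoptotic protein induced by interferon, had 0.584 CPM in the high-Ascl4 cells and 157.9 CPM in the low-Ascl4 cells (log2 −6.65; −6.93 without the broad cells) and reached 10 CPM in 0 high and 6 low cells. Both stayed at least 1.5-fold lower under all 21 alternatives. Ifit1 (log2 −1.22; −1.52 without the broad cells) and the transcription factor Irf7 (log2 −0.61; −0.78 without the broad cells) were lower in the sums, but Ifit1 stood at 0.93 in the second run, and Irf7 at 1.17 between the 17 highest and the 17 lowest cells. The GTPases Iigp1 and Irgm1 were higher, at log2 3.38 and 2.02 (4.35 and 2.11 without the broad cells). Iigp1 reached 10 CPM in 3 high cells and 1 low cell, and Irgm1 in 5 high and 4 low cells.

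MHC class I and peptide loading genes, which present peptides to T cells, had 2 higher and 10 lower of 15 expressed members (median log2 −0.77; −0.996 without the broad cells), and a median of 0.35 in the first run. H2-D1, a heavy chain, had sums of 423 CPM in the high-Ascl4 cells and 237.8 CPM in the low-Ascl4 cells (log2 0.83; 1.71 without the broad cells; −1.38 in the second run). B2m, the shared light chain, had 150.2 CPM in the high-Ascl4 cells and 257 CPM in the low-Ascl4 cells (log2 −0.77; −0.21 without the broad cells; 0.99 in the first run) and reached 10 CPM in 13 high and 12 low cells. Psmb8, a subunit of the immunoproteasome, and Tapbp, a loading chaperone, had log2 ratios of −2.92 and −1.59 (−2.96 and −1.73 without the broad cells), each at 10 CPM in 2 high and 8 low cells. Cd74, the invariant chain of class II, had log2 −0.14 over all cells and 1.35 without the broad cells.

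**Figure D4:**
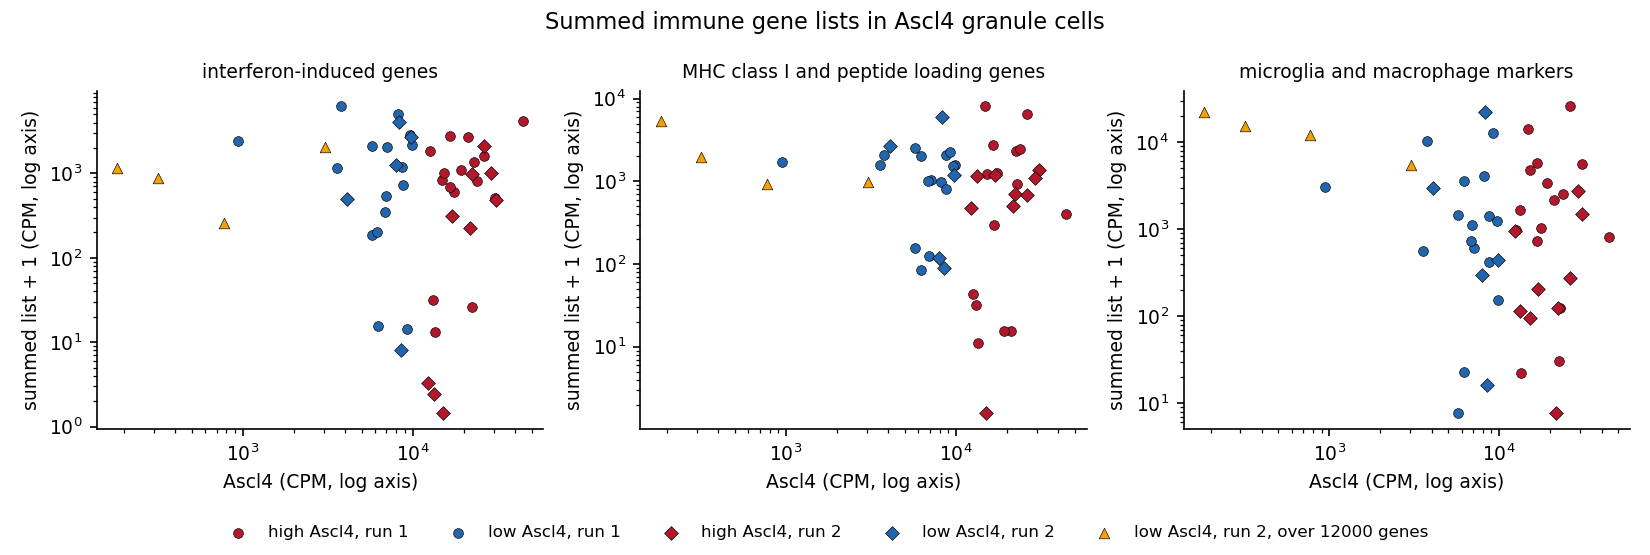
Each panel plots the summed level of 1 gene list plus 1 (CPM, log axis) against Ascl4 (CPM, log axis) in the 50 cells of both groups, with circles for the first and diamonds for the second run of title numbers and orange triangles for the 4 low cells with over 12000 genes. High-Ascl4 and low-Ascl4 cells overlap in all 3 lists, with interferon-induced sums from 0.444 to 4119.8 CPM in the high-Ascl4 cells and from 7.09 to 6294 CPM in the low-Ascl4 cells.

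The sign of the glial marker lists turned when the broad cells were left out, and without them it still differed between the 2 runs of title numbers. The oligodendrocyte list had 7 of 7 expressed members lower in the high-Ascl4 cells (median log2 −6.62), against 3 higher and 1 lower of 4 without the broad cells (median 0.99). Its summed level was at most 1716 CPM in the high-Ascl4 cells, at most 975 CPM in the other low cells and 62328 to 119033 CPM in the broad cells. Mobp, a myelin protein, had log2 −6.83 over all cells and 3.88 without them, and Bcas1 −6.65 and 2.01. Astrocyte markers had a median of −1.29 over all cells, with 1 higher and 8 lower of 10. Without the broad cells their median was 0.75, with 4 higher and 2 lower of 7. The water channel Aqp4 had log2 −4.76 over all cells and −0.22 without the broad cells. Microglia markers had a median of −0.64 over all cells, with 2 higher and 13 lower of 23. Without the broad cells their median was 0.35, with 9 higher and 6 lower of 20. By run, still without the broad cells, the microglia median was 2.93 in the first and −5.15 in the second. The oligodendrocyte median was 1.69 and −0.33 by run, and the astrocyte median −0.12 and 0.31. Csf1r, the microglial growth factor receptor, was lower in the sums with and without the broad cells, at log2 −2.54 and −0.76. In the first run alone Csf1r stood at 1.35.

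Aldoc, an aldolase on the astrocyte list, was lower with and without the broad cells. It had 0 to 332 CPM (median 1.07 CPM) in the high-Ascl4 cells and 0 to 2905 CPM (median 14.2 CPM) in the low-Ascl4 cells, and reached 10 CPM in 4 high and 13 low cells, 9 without the broad cells. Its sums were 27.9 CPM in the high-Ascl4 cells and 888 CPM in the low-Ascl4 cells (log2 −4.94; −4.04 without the broad cells), and it stayed at least 1.5-fold lower under all 21 alternatives. The summed EGFP GC level was 441 CPM, with 18 of 47 cells at 10 CPM. The broad cells held 1583 to 2877 CPM.

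Mitochondrially encoded genes were lower for all 13 expressed members (median log2 −2.64), and for 5 of 10 without the broad cells (median −0.60). mt-Cytb, a subunit of complex III, had 29.3 to 7226 CPM (median 1098 CPM) in the high-Ascl4 cells and 370.5 to 63761 CPM (median 1998 CPM) in the low-Ascl4 cells (log2 of the sums −2.67; −0.64 without the broad cells). mt-Nd4, a subunit of complex I, had log2 −3.04 and −0.56. The 56 nuclear genes of oxidative phosphorylation had a median of 0.03, 5 higher and 11 lower, and without the broad cells 6 higher and 12 lower. Uqcrb, a subunit of complex III, had 93.4 CPM in the high-Ascl4 cells and 257 CPM in the low-Ascl4 cells (log2 −1.45; −1.58 without the broad cells), and reached 10 CPM in 18 high and 21 low cells. Total reads had a median of 5621568 in the high-Ascl4 cells and 4135968 in the low-Ascl4 cells, and the part of depth and of RNA quality in these values was not tested.

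Activity-regulated genes, which neurons switch on when they fire, had a median ratio near 1. Of 32 expressed members 10 were higher and 3 lower (median log2 −0.00; −0.22 without the broad cells, with 7 higher and 5 lower). Fos ran from 8.43 to 8587 CPM (median 2224 CPM) in the high-Ascl4 cells and from 12.9 to 9824 CPM (median 2149 CPM) in the low-Ascl4 cells, with sums of 2785 CPM in the high-Ascl4 cells and 2785 CPM in the low-Ascl4 cells (log2 −0.00; −0.29 without the broad cells). Arc, a regulator of AMPA receptors, had 884 CPM in the high-Ascl4 cells and 898 CPM in the low-Ascl4 cells (log2 −0.02; −0.34 without the broad cells), and the growth factor Bdnf 262 CPM in the high-Ascl4 cells and 385 CPM in the low-Ascl4 cells (log2 −0.56; −0.89 without the broad cells). Npas4, a bHLH factor induced by calcium, had 270.1 CPM in the high-Ascl4 cells and 68.02 CPM in the low-Ascl4 cells (log2 1.97; 1.69 without the broad cells), with 12 high and 11 low cells at 10 CPM, so its sums differed more than its number of cells. Ier2 had 88.4 CPM in the high-Ascl4 cells and 431 CPM in the low-Ascl4 cells (log2 −2.27; −2.53 without the broad cells) and Crem 51.6 CPM in the high-Ascl4 cells and 9.27 CPM in the low-Ascl4 cells (log2 2.36; 2.11 without the broad cells), and these 3 stayed past 1.5-fold under all 21 alternatives.

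Synaptic genes went both ways within each list, as did all expressed genes, of which 35.4% were higher and 30.8% lower. Glutamate supply and vesicular transport genes had 5 higher and 2 lower of 13 (median log2 0.50; 0.18 without the broad cells). Slc17a7, the vesicular glutamate transporter VGLUT1, had 0 to 235.3 CPM (median 1.61 CPM) in the high-Ascl4 cells and 0 to 592 CPM (median 74.01 CPM) in the low-Ascl4 cells, with sums of 55.2 CPM in the high-Ascl4 cells and 120.1 CPM in the low-Ascl4 cells (log2 −1.11; −1.05 without the broad cells). It reached 10 CPM in 10 high and 15 low cells and in 38 of 47 EGFP GC cells, whose summed level was 318 CPM. With the authors' normalized values its log2 ratio was 0.034. Got1, an aspartate aminotransferase, and Atp6v0a1, a subunit of the vesicular proton pump, were higher, with 742 CPM in the high-Ascl4 cells and 306 CPM in the low-Ascl4 cells (log2 1.27; 1.16 without the broad cells) and 471 CPM in the high-Ascl4 cells and 172.7 CPM in the low-Ascl4 cells (log2 1.44; 1.31 without the broad cells). The presynaptic list had 10 higher and 13 lower of 39 (median −0.01; 0.04 without the broad cells), with Syngr1, a synaptic vesicle protein, at 288 CPM in the high-Ascl4 cells and 46.4 CPM in the low-Ascl4 cells (log2 2.61; 2.93 without the broad cells).

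Postsynaptic genes had 16 higher and 8 lower of 38 expressed members (median log2 0.31; 0.15 without the broad cells), beside 35.4% and 30.8% over all genes. Without the broad cells 13 were higher and 11 lower of 38. GABA receptor genes had 4 higher and 4 lower of 13 (median −0.14; −0.38 without the broad cells). Gabrd, the δ subunit of extrasynaptic receptors in granule cells, had 0 to 288 CPM (median 0.356 CPM) in the high-Ascl4 cells and 0 to 1321 CPM (median 4.28 CPM) in the low-Ascl4 cells. It reached 10 CPM in 3 high and 12 low cells (8 of 21 without the broad cells) and in 12 of 47 EGFP GC cells. Its sums were 22.8 CPM in the high-Ascl4 cells and 190.96 CPM in the low-Ascl4 cells (log2 −3.01; −2.91 without the broad cells), and it stayed at least 1.5-fold lower under all 21 alternatives. Gabra2, an α subunit, had 96.6 CPM in the high-Ascl4 cells and 36.1 CPM in the low-Ascl4 cells (log2 1.40; 1.31 without the broad cells), but a log2 ratio of −0.00090 with the redrawn median. Voltage-gated channel genes had 15 higher and 12 lower of 46 (median 0.44; 0.32 without the broad cells). The sodium channel Scn3a had 111.1 CPM in the high-Ascl4 cells and 17.95 CPM in the low-Ascl4 cells (log2 2.56; 2.26 without the broad cells) and the potassium channel Kcnq3 6.93 CPM in the high-Ascl4 cells and 47.6 CPM in the low-Ascl4 cells (log2 −2.62; −2.85 without the broad cells).

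The lists of wiring genes had medians within 1.5-fold, and 2 of the 3 took the other sign without the broad cells. Trans-synaptic organizers had 15 higher and 12 lower of 39 (median log2 −0.16), and without the broad cells 9 and 14 of 36 (median −0.25). Axon guidance genes had 16 higher and 10 lower of 43 (median 0.09), and without the broad cells 14 and 12 of 44 (median −0.21). Cadherins, protocadherins and catenins had 9 higher and 6 lower of 23 (median 0.19), and without the broad cells 8 and 9 of 22 (median −0.23). Tenm1, a teneurin, had 3.73 CPM in the high-Ascl4 cells and 72.5 CPM in the low-Ascl4 cells (log2 −3.96; −4.11 without the broad cells). Chl1, a cell adhesion molecule of the L1 family, had 0 to 193.02 CPM (median 0.826 CPM) in the high-Ascl4 cells and 0 to 1227 CPM (median 2.23 CPM) in the low-Ascl4 cells, with sums of 18.4 CPM in the high-Ascl4 cells and 186.3 CPM in the low-Ascl4 cells (log2 −3.27; −3.42 without the broad cells; rho −0.44). Plxnb2, a semaphorin receptor, had 0.212 CPM in the high-Ascl4 cells and 56.5 CPM in the low-Ascl4 cells (log2 −5.57; −5.67 without the broad cells), where 4 of the 6 low cells at 10 CPM were broad. Cdh13 had 87.3 CPM in the high-Ascl4 cells and 9.85 CPM in the low-Ascl4 cells (log2 3.02; 2.73 without the broad cells) and Cdh4 0.0286 CPM in the high-Ascl4 cells and 50.1 CPM in the low-Ascl4 cells (log2 −5.63; −5.97 without the broad cells), and with the authors' normalized values Cdh4 stood at 2.19. Tenm1, Chl1, Plxnb2 and Cdh13 stayed past 1.5-fold under all 21 alternatives.

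The remaining lists with at least 5 expressed members had medians between −1.15 (interneuron markers; −0.17 without the broad cells) and 0.38 (p53 target and cell death genes; 0.33 without the broad cells). Immature neuron genes stood at −0.63 and −0.33 without the broad cells, and CA1 markers at −0.52 and −0.45. CA3 and mossy cell markers stood at −0.10 and, with the other sign, at 0.36 without the broad cells. Axon growth genes stood at −0.08 and −0.16 without the broad cells, with the injury-induced factor Klf6 at log2 −2.10 and −2.35. Neuropeptides stood at −0.13 and −0.32 without the broad cells, chemokines and cytokines at −0.30 and −0.44, and nucleic acid sensors at 0.27 and 0.23. Heat shock and unfolded protein genes stood at −0.07 and −0.10 without the broad cells, with the endoplasmic reticulum protein Creld2 at log2 −5.39 and −5.52. The class II, T cell and endothelial lists had fewer than 5 expressed members. Of 28 lists with at least 5, 20 had a median within 1.5-fold both over all cells and without the broad ones.

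**Figure D5:**
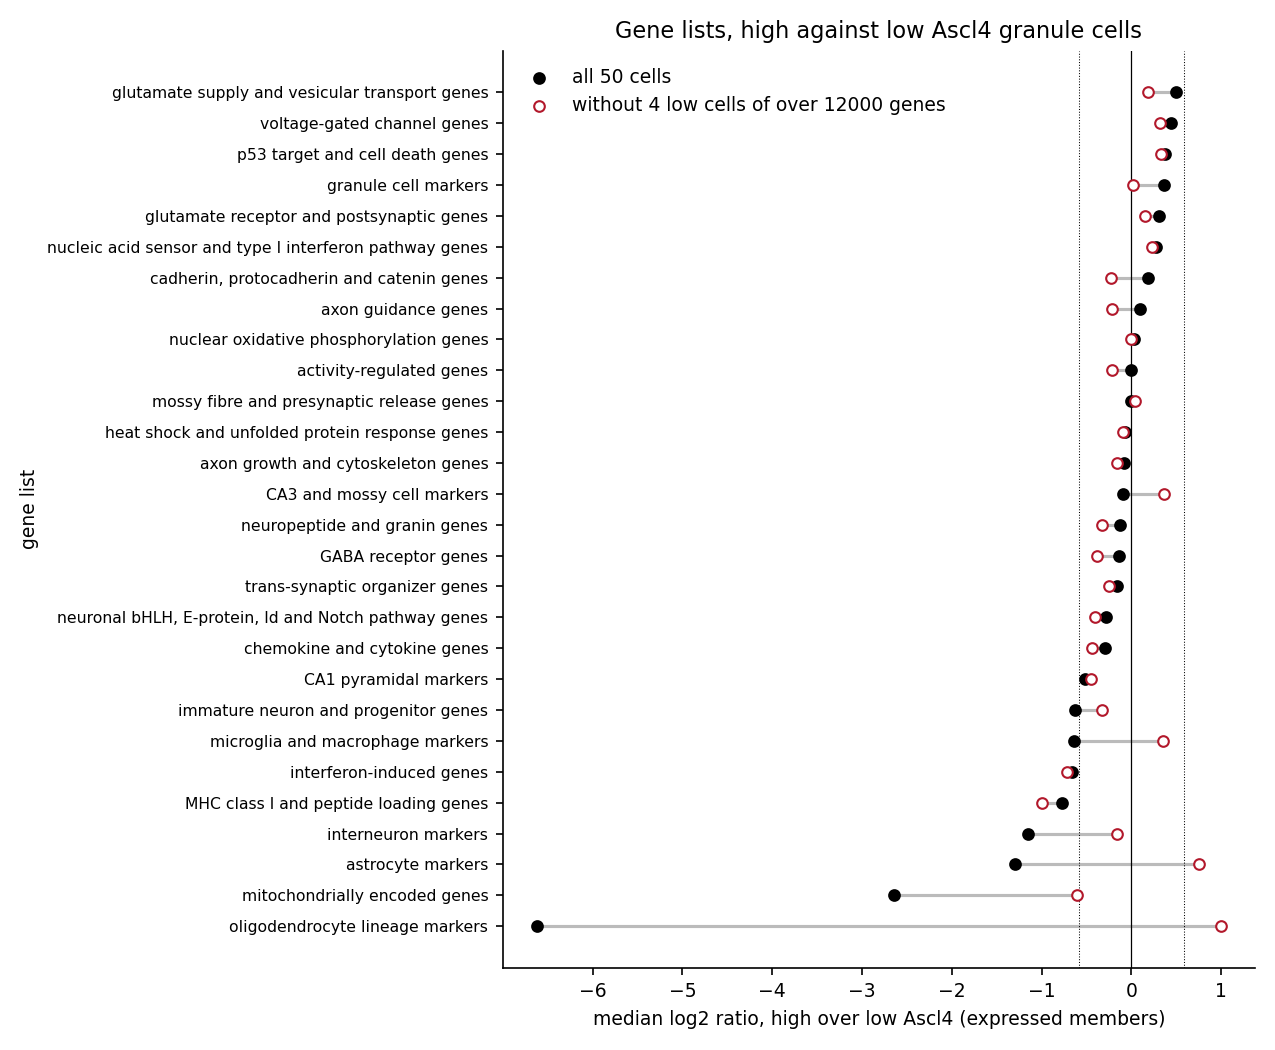
Each row is 1 gene list with at least 5 expressed members, and the x axis gives the median log2 ratio of the high-Ascl4 cells over the low-Ascl4 cells, with filled points for all 50 cells and open points without the 4 low cells of over 12000 genes; dotted lines mark 1.5-fold. The oligodendrocyte, astrocyte and microglia lists lie on the low side with the 4 cells and on the high side without them, and 20 of 28 lists lie within 1.5-fold in both.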

How the data were processed

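The authors' deposited tables held whole-number read counts per gene for single patch-pipette cells, in 1 table before and 1 after their quality control, with identical counts for shared cells. Another deposited table held normalized signal, in which the authors scaled the counts of each cell by 1 factor. STAR, HTSeq and GRCm38.p4 come from the submitters' processing notes. Not given in the sources used here were their versions and how cells were filtered and scaled. The design text gives a higher number of Ascl4 GC cells past quality control than the 51 of the table, which was followed.

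Of the 22870 gene rows and 92 spike-in rows (4 reads), the spike-ins were left out. Ascl4 GC cells had 1239702 to 20876388 reads. Counts were summed over the cells of a group, scaled to CPM and compared as log2 ratios with a pseudocount of 1 CPM, which shrinks ratios of genes near 0. Deeper cells weigh more in sums. Expressed genes had a read in at least 25% of the cells and 10 CPM in 1 group. Ascl4 was left out of all results. The naming rule ranked genes by the smaller of the ratio of sums and of mean CPM without the highest cell, leaving out gene models, pseudogenes, ribosomal protein and mitochondrial genes, and took 12 a side; fixed genes and up to 4 members of each of 31 lists (920 genes found of 929) were added. The groups, lists and genes were chosen with earlier results of these data known. Positions came from the annotation of GRCm38. The code was tested on simulated data. Tools were Python 3.11.15, pandas 2.3.3, scipy 1.17.1, and, for scaling factors only, edgeR 4.0.16 and DESeq2 1.42.0.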

Additional observations from a re-analysis of the deposited data

Results flagged for a closer look

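The quality control left out 5 further Ascl4 GC cells, which no comparison above uses. Their Ascl4 levels were 34372, 35592, 22655, 8347 and 2486 CPM, and the lowest of them, at 2486 CPM, still exceeded the highest EGFP GC cell (221.7 CPM). They held 3103 to 6937 genes with a read. Adding all 5 to the ranking gave 3399 genes at least 1.5-fold higher and 2975 lower.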

How the results depend on the processing

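The 2 counts of genes, 30 list medians and 87 single-gene ratios were computed under 20 alternatives set with the design and 1 chosen after seeing the data, the median redrawn over the 47 cells with at most 12000 genes. The counts by the naming rule, shares of cells, rho, the CA1 split and promoter matches were not. The counts of 3365 higher and 2932 lower genes stayed within 1.5 times except for 1748 higher beside 2725 lower (difference of mean log2 values), 5312 lower beside 4536 higher (no filter on low values), and 1823 higher and 1440 lower (filter of 50% of cells and 50 CPM). edgeR's TMM scaling moved the median of all genes to 0.31, against 0.11 with CPM, and gave 3942 higher and 2474 lower. The median split within each run gave the same groups, so it left every value as it was. Changing the expression filter left each single-gene ratio as it was. Genes named by the rule had already met 1.5-fold in the means and in each run, which are among the alternatives. No paired analysis was possible because the labels give neither an animal nor a number that pairs cells.

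Of 9 list medians past 1.5-fold 7, and of 77 single genes past it 24, changed sign somewhere; the causes were not tested. Of the values within 1.5-fold, 20 of 21 list medians and 9 of 10 genes did. Expressed members of a list were chosen anew under each alternative; over the members used in the report the first run gave −0.05 for the astrocyte list. Among those past 1.5-fold, the authors' normalized values gave Cdh4 2.19, Epb41l4a −0.91, Id2 0.78, Irf7 1.19, Khk 2.14, Klf6 0.92, Mturn 2.02, Psmb8 0.22, Slc17a7 0.034, Tcf3 −0.36, Trip10 −1.08 and the interneuron list 0.26. That list also turned with cells thinned to 500000 reads (0.22), under the stricter filter (0.15) and in the second run (0.61). The first run alone gave B2m 0.99, Bcas1 3.05, C1ql2 −0.21, Csf1r 1.35, Id2 0.62, Irf7 0.88 and Mobp 5.98, and the lists MHC class I 0.35, T cell 0.15, astrocyte 1.41, interferon-induced 0.33, microglia 3.00 and oligodendrocyte 1.69. The second run gave H2-D1 −1.38, Ifit1 0.93 and Mkks 1.03. The redrawn median gave Acta1 −0.82, Bcas1 2.21, C1ql2 −0.0016, Dcp1a −1.39, Epb41l4a −0.91, Gabra2 −0.00090, Mobp 0.30, Nup93 −0.99, Tcf3 −0.18, Trip10 −1.99, astrocytes 0.95 and microglia 0.72. The 17 highest against the 17 lowest cells gave Irf7 1.17, Tapbp 0.12, MHC class I 0.12 and interferon-induced 0.24. Without the broad cells Bcas1 was 2.01, Mobp 3.88, astrocytes 0.75, microglia 0.35 and oligodendrocytes 0.99, and without the deepest 10% of cells microglia were 0.075.

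The labels name no animal, so the spread between animals is unknown and no difference here was tested. The reads carry no molecular identifiers, so intervals cover counting error only. With most genes at 10 CPM in few cells, a gene without reads in a cell was not detected there rather than shown absent.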

Other observations

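A cell with features of the 4 broad cells was also present among the Ascl4 CA1 cells, on the low side of the same split. It held 17883 genes with a read and 1565 CPM of Ascl4. Its Gabra6 level was 320.5 CPM, against at most 163.1 CPM in the other 44 Ascl4 CA1 cells, and its Mbp level was 27508 CPM. The transcription factor Zic1, known from cerebellar granule cells, stood at 57.98 to 256 CPM in the 4 broad cells and at 13.6 CPM at most in the 47 others, while 1 EGFP GC cell held 155.7 CPM. Snap25, a presynaptic protein of all neurons, did not set the broad cells apart, with 2572 to 9222 CPM in them and a median of 3263 CPM in the others. In all, 3174 genes reached 10 CPM in each of the 4 broad cells, and 71 of these were higher in each of the 4 than in every other Ascl4 GC cell. These genes were looked up after the cells were seen to stand apart, and where their RNA came from was not tested.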
